A study of Mus musculus with 6 samples.

Results

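The 41 genes described here encode the enzymes and carriers that oxidize fatty acids and break down the branched-chain amino acids leucine, isoleucine and valine. They were chosen as a list of gene symbols by function, with earlier results of these data known. All 41 are among the 17428 genes of the deposited table. RNA-seq was performed on EpH4, an immortalized, near-normal mouse mammary epithelial cell line, in 3 states with 2 libraries each. E cells were grown in normal medium without TGFβ1, M cells had received TGFβ1 for 7 days to induce an epithelial-mesenchymal transition (EMT), and RE (reverted epithelial) cells had received TGFβ1 for 7 days and then normal medium without it for another 4 days. All 3 states were cultured with serum and insulin, and no E culture of matching age was among the samples, so days in culture and TGFβ1 history cannot be told apart.

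In mitochondrial beta-oxidation, long-chain acyl groups enter the mitochondrion through the carnitine shuttle and are shortened in repeated rounds of dehydrogenation, hydration, a further dehydrogenation and thiolysis. Branched-chain amino acids are first transaminated, then committed to breakdown by the branched-chain ketoacid dehydrogenase complex, and finally follow separate routes for leucine, valine and isoleucine that end in acetyl-CoA, acetoacetate or propionyl-CoA. The acyl-CoA dehydrogenases of both pathways pass their electrons to the electron transfer flavoprotein, and the mammary epithelium is best known for making rather than burning fat during lactation.

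The deposited values are read coverage summed in bases over each gene, which corresponded to between 35782513 (E2) and 47928557 (M1) reads of 50 bases per library. They were scaled with TMM (trimmed mean of M-values) factors to ppm, the bases of a gene per Mb of the library's coverage, and fold changes are on the log2(ppm + 0.1) scale from 1 limma fit over the 13893 genes that passed the coverage filter, all 41 members included. The lowest member value in a library was worth 94 reads, for *Mcee*. A member was called a DEG (differentially expressed gene) when its log2 fold change passed 1 or -1 with an adjusted p below 0.01, and a second rule used an adjusted p below 0.05 at any fold. Luminal keratin and adhesion genes were present in every library, and *Krt19* alone of the 5 was near 0. Their summed level was 1728 and 1398 ppm in E cells, 1270 and 1312 ppm in M cells and 793.1 and 845.8 ppm in RE cells. Within this sum *Krt8* was highest in M cells, while *Krt18* and *Tacstd1* (*Epcam*) were highest in E cells. *Cdh1* in M cells overlapped both other states. The 5 adipocyte markers summed to at most 0.186 ppm in any library, with *Adipoq*, *Plin* (*Plin1*), *Lep* and *Cidec* at or below 3 reads' worth throughout. The 4 fibroblast markers in the table summed to 84.7 and 113 ppm in E cells and 487.7 and 442.2 ppm in M cells. In RE cells they summed to 906.7 and 766.4 ppm. Most of the sum was *Pdgfrb*, while *Thy1* was at or below 3 reads' worth throughout. *Dcn* had 0.50 and 0.30 ppm in E cells, at most 3 reads' worth in M cells and 3.79 and 1.74 ppm in RE cells. Basal markers summed to 374.2 and 305.8 ppm, then 787 and 892.8 ppm, then 500.7 and 498.6 ppm, with *Oxtr* and *Krt5* near 0. Most of this sum was *Krt14*, which like *Acta2* was highest in M cells. *Trp63* was instead lowest in M cells, at 44.7 and 54.9 ppm, and highest in RE cells, at 172.6 and 158.2 ppm. Leukocyte markers stayed at 5.34 to 9.44 ppm, mostly *Cd68* and with *Ptprc* at or near 0. Endothelial markers summed to 0.56 and 0.37 ppm in E cells, 2.71 and 2.73 ppm in M cells and 0.50 and 0.49 ppm in RE cells. Most of the sum in M cells was *Cdh5*, at 2.33 and 2.07 ppm there and 0 in both E libraries. The part of these marker shifts in the results was not tested. In these bulk libraries, fewer cells expressing a gene and less RNA per cell cannot be told apart.

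Most members had less coverage in M cells than in E cells, and more again in RE cells. Summed over the 41 members, coverage was 3579 and 2972 ppm in E cells, 2562 and 2398 ppm in M cells and 3486 and 3376 ppm in RE cells, so that both M libraries lay below the other 4. The median log2 fold change of the members was -0.34 in M relative to E cells, against 0.00 over all genes tested, and 8 of 41 members had a positive value. In RE relative to M cells the median was 0.43, against -0.02 over all genes, and 37 of 41 were positive. Between E and RE cells the median was 0.01, as it was over all genes.

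**Figure D1:**
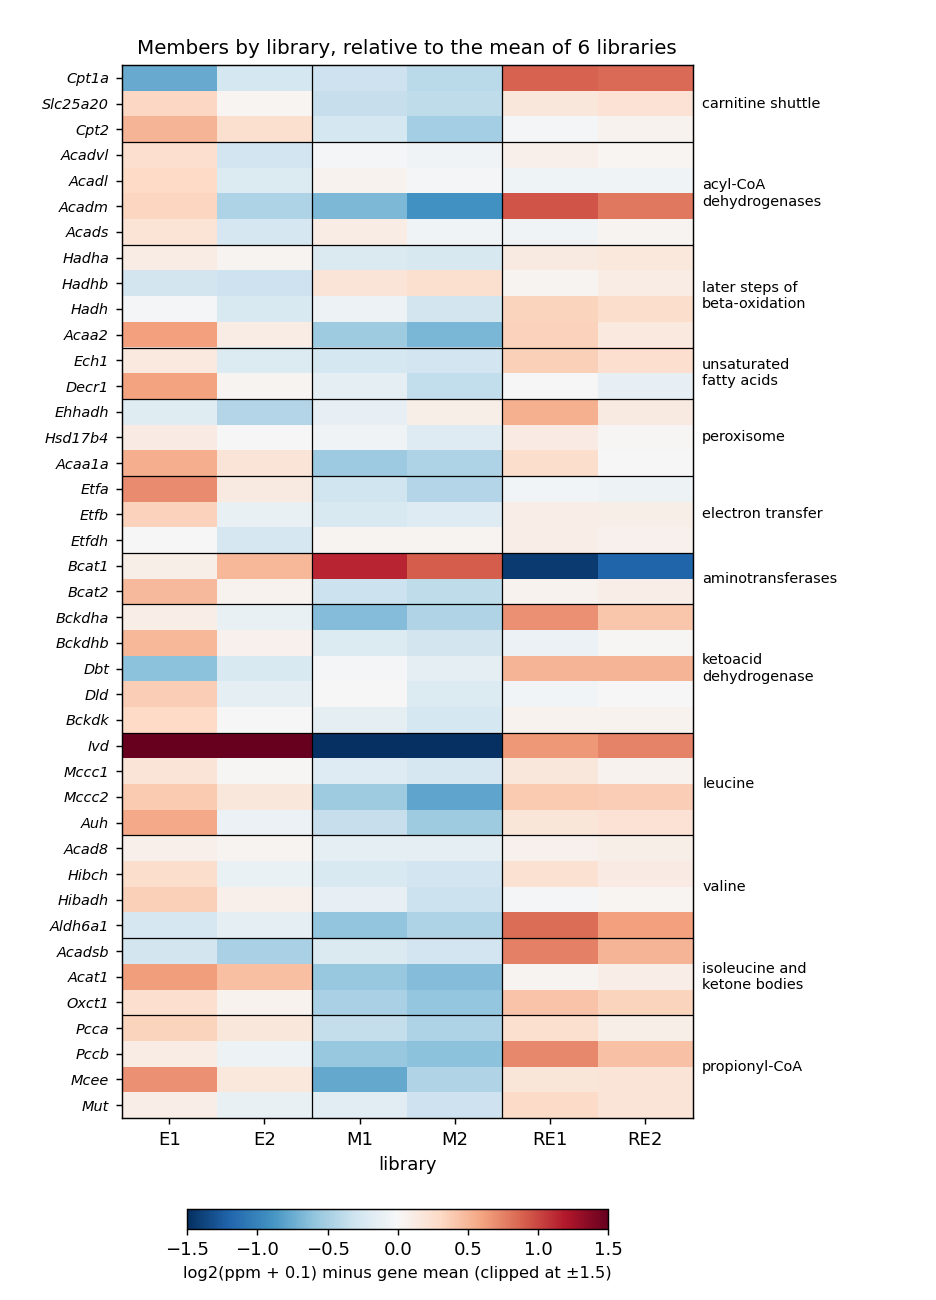
Coverage of the 41 members (rows, grouped by role) in the 6 libraries (columns), as log2(ppm + 0.1) minus the mean of that gene over the 6 libraries. Blue is below and red above the gene mean. Most rows are bluest in M1 and M2, *Bcat1* runs the other way, and the Ivd row spans the whole colour scale.

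In E vs. M, 2 members were DEGs, both lower in M cells (*Ivd* and *Acat1*), where 17.0% of all genes tested were DEGs and 8.39% were lower DEGs; the members' share of 4.88% was below that background. No member was a higher DEG in M cells by limma (2 members were higher at an unadjusted p below 0.05, neither of them past the fold threshold), against 8.58% of all genes. The second rule was passed by 46.3% of members against 41.4% of all genes, a like share, but by direction 18 members (43.9%) were lower and 1 was higher, against 19.9% and 21.5% of all genes. In M vs. RE, where 12.9% of all genes were DEGs, 7 members were higher DEGs in RE cells (*Cpt1a*, *Acadm*, *Bckdha*, *Ivd*, *Mccc2*, *Aldh6a1* and *Pccb*), which is 17.1% against 8.08% of all genes, and 1 was a lower DEG (*Bcat1*), against 4.79%. By the second rule, which 31.5% of all genes passed, 18 members were higher and 1 lower, against 17.0% and 14.6% of genes in each direction. In E vs. RE, where 9.37% of all genes were DEGs, as were 9.76% of members, 2 members were higher in RE cells (*Cpt1a* and *Acadsb*) and 2 were lower (*Bcat1* and *Ivd*), against 6.2% and 3.17% of all genes. The second rule, passed by 30.1% of all genes, gave 8 higher (19.5%) and 3 lower (7.32%) members there, against 17.2% and 12.9%. M vs. RE shares its M libraries with E vs. M, so those comparisons are not independent of each other.

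Counting members whose groups did not overlap gave the same picture without a threshold. Both M libraries lay below both E libraries for 29 members and above them for 5, where 35.0% and 35.5% of all genes did so. Both RE libraries lay above both M libraries for 36 members and below them for 3, against 37.9% and 40.2% of all genes. Between RE and E cells, 15 members were higher and 8 lower without overlap, against 34.2% and 32.5%.

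These counts changed when single libraries were left out. The fit used 1 spread per gene for all 3 states, so the SE of M vs. RE also holds the spread of E cells. Over all genes tested, log2 differences between the 2 libraries had an SD of 0.558 in E, 0.318 in M and 0.309 in RE cells. The part of this shared spread in the counts was not tested. In E1, 37 of the 41 members were higher than in E2, by a median log2 difference of 0.25, against 0.02 over all genes tested. Without E2 the E vs. M count of DEGs rose from 2 to 9, and without M2 it was 1, with *Acat1* at an adjusted p of 0.0118 (limma). Leaving out M1, M2 or RE1 left 2 DEGs in M vs. RE (*Ivd* and *Bcat1*), and leaving out RE2 left 3. *Cpt1a*, *Acadm*, *Bckdha*, *Mccc2* and *Aldh6a1* lost their M vs. RE call in each of these 4 settings, with limma adjusted p values up to 0.0394, and *Pccb* lost it in all but the one without RE2. Their log2 fold changes in M vs. RE stayed between 0.92 and 1.78. Without RE1 or without RE2, no member was a DEG in E vs. RE by limma, although 7 and 11 members had an unadjusted p below 0.05. The call of *Ivd* in E vs. M and those of *Ivd* and *Bcat1* in M vs. RE were kept in all 16 alternative settings tried. Of 35 calls by the second rule alone over the 3 comparisons, 33 lost an adjusted p below 0.05 in at least 1 single-library omission and 14 in at least 1 of the other 10 settings. The latter were the E vs. M calls of *Slc25a20*, *Acadm*, *Bcat1*, *Bcat2*, *Bckdha*, *Bckdhb*, *Auh* and *Hibadh*, the M vs. RE call of *Mcee* and the E vs. RE calls of *Acadm*, *Ehhadh*, *Bckdha*, *Acat1* and *Pccb*.

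When library totals replaced TMM, the log2 fold changes of all tested genes had a median of -0.29 for E vs. M and 0.18 for M vs. RE. The members' medians became -0.65 and 0.64. A change of scaling moves all genes of a library by nearly the same amount, so their distance from the all-gene medians could hardly change. Among all DEGs, those higher in M than in E cells went from 50.6% to 30.5%, and those higher in RE than in M cells from 62.8% to 73.8%. With these totals the members' counts became 8 lower DEGs in E vs. M, and 10 higher and 1 lower in M vs. RE.

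*Ivd*, which encodes isovaleryl-CoA dehydrogenase, the enzyme that commits the leucine skeleton to its own route, changed most among the 41 members. Its normalized coverage was 76.9 and 72.5 ppm in E cells, 3.33 and 2.44 ppm in M cells and 29.6 and 31.6 ppm in RE cells. The 3 states did not overlap, with M cells lowest and RE cells between M and E cells. *Ivd* fell by 4.66 on the log2 scale in M relative to E cells (SE 0.18, 95% interval -5.08 to -4.24, limma adjusted p = 9.2e-06), which is 25.3-fold. It rose by 3.38 (SE 0.18, limma adjusted p = 2.22e-05) in RE relative to M cells, and its level in RE cells remained lower than in E cells by a log2 fold change of -1.29 (SE 0.18, limma adjusted p = 0.00265). The last difference lost its call without RE1 or without RE2, with log2 fold changes of -1.24 to -1.33 over all single-library omissions. No other annotated gene overlapped its exons and no near-identical copy was found.

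**Figure D2:**
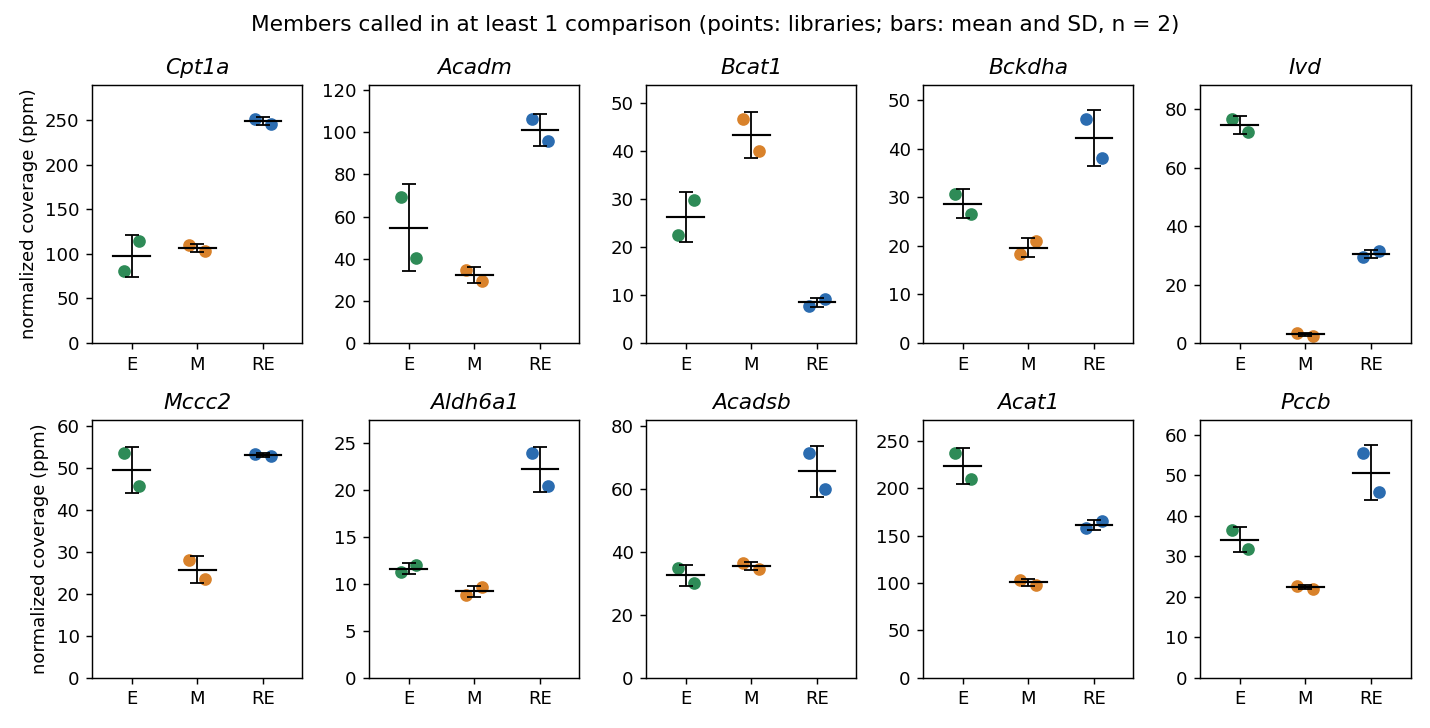
Normalized coverage (ppm, linear axis from 0) of the 10 members that were DEGs in at least 1 comparison, in E, M and RE cells. Points are libraries and bars are the mean and SD of 2 libraries. *Ivd* nearly vanished in M cells, *Bcat1* was highest there, and *Cpt1a*, *Aldh6a1* and *Acadsb* stood apart in RE cells.

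The promoter of *Ivd* is shown because this gene carried the largest change, those of *Bcat1* and *Acadm* because their changes in M vs. RE were the next in size, and that of *Cpt1a* because it encodes the entry step of fatty acid oxidation and was called in both comparisons with RE cells. Each sequence is the 250 bases before the annotated transcription start on the gene's own strand, from RefSeq for GRCm38.p6, a later build than the NCBI-m37 genome to which the study mapped its reads. Capitals mark matches, on either strand, to any of 12 short motifs, which were chosen after the data had been examined.
Ivd, chr2:118861744-118861993, plus strand: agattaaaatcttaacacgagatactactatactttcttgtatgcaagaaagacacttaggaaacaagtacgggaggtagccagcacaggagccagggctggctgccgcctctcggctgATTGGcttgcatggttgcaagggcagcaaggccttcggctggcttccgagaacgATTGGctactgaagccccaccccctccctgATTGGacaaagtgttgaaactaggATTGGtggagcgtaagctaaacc
Bcat1, first listed start, chr6:145076158-145076407, minus strand: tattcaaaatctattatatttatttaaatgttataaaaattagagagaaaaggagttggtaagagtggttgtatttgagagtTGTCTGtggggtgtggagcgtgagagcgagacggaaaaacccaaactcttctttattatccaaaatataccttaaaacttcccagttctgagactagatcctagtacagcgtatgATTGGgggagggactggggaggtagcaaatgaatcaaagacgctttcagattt
Cpt1a, chr19:3323051-3323300, plus strand: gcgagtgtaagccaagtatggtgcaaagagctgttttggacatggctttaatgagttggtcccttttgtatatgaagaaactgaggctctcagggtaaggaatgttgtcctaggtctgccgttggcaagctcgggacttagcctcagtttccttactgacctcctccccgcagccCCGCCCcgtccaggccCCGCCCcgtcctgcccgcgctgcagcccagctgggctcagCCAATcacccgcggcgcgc
Acadm, chr3:153944644-153944893, minus strand: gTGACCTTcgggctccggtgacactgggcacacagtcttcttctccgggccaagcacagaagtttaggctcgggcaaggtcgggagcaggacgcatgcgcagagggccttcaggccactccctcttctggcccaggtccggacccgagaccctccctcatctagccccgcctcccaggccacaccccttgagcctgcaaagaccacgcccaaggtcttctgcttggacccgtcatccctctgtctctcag

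The *Ivd* window held 4 CCAAT boxes (letters CCAAT), all on the reverse strand and therefore read as ATTGG. The *Cpt1a* window held 1 CCAAT box and 2 GC boxes (GGGCGG), that of *Bcat1* held 1 CCAAT box and 1 Smad box (CAGACA), and that of *Acadm* held 1 estrogen-related receptor element (AAGGTCA). A second start listed for *Bcat1* had no match to any of the 12. Promoter entries were found for 35 of the 41 members. A CCAAT box lay in the window of 19 of these (54.3%) against 37.5% of all 27025 genes with an entry, and a GC box in 20 (57.1%) against 35.4%. Those 27025 genes were not limited to the genes tested here or matched to the members by level. A gene counted when any of its listed starts held the motif. The estrogen-related receptor element was in 1 member (2.86%) against 4.7% of genes, the Smad box in 7 of the 35 against 19.3%, and the E-box of Zeb and Snail (CAGGTG) in 4 (11.4%) against 19.4%. The AP-1 site (TGAGTCA) and the E-box of Myc and USF (CACGTG) were each in 1 member, against 5.16% and 6.86% of genes, and the NRF1 site (GCGCA followed directly by its reverse complement) in 1, against 0.877%. The ETS site (CCGGAAGT) was in 2 members (5.71%) against 3.23%. The PPAR and RXR element is a direct repeat of AGGNCA with 1 base between, which can hold all letters of the estrogen-related receptor element. The PPAR and RXR repeat, the Smad palindrome (GTCTAGAC) and the amino acid response element (TGATGNAA) were in none of the 35 windows. They were in 0.4%, 0.2% and 3.91% of genes.

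The carnitine shuttle moves long-chain acyl groups across the mitochondrial membranes. *Cpt1a*, the outer-membrane palmitoyltransferase that controls entry, had 80.5 and 114 ppm in E cells, 109.5 and 103.3 ppm in M cells and 251.7 and 245.7 ppm in RE cells. E and M cells overlapped, and both RE libraries were far above them. *Cpt1a* rose by 1.22 on the log2 scale in RE relative to M cells (SE 0.18, limma adjusted p = 0.00189) and by 1.38 relative to E cells (SE 0.18, limma adjusted p = 0.0019). *Cpt2*, the inner-membrane palmitoyltransferase that releases the acyl-CoA inside, had 64.1 and 53.1 ppm in E cells, 37.2 and 31.4 ppm in M cells and 43.9 and 46.7 ppm in RE cells. Its 3 states did not overlap and E cells were highest. *Cpt2* fell by 0.77 in M relative to E cells (SE 0.16, limma adjusted p = 0.00686), and its log2 fold change of 0.40 in M vs. RE did not pass (limma adjusted p = 0.0888). *Slc25a20*, the carnitine-acylcarnitine carrier between them, had 17.9 and 14.8 ppm, then 11.4 and 11.1 ppm, then 16.3 and 16.9 ppm. Its M libraries lay below all the others, with a fall of 0.53 (SE 0.16, limma adjusted p = 0.0322) and then a rise of 0.56 (SE 0.16, limma adjusted p = 0.0344). With GC content and length removed the fall was -0.33 and did not pass (limma adjusted p = 0.0747), and under library totals it was -0.83. In RE relative to E cells the log2 fold change of *Cpt2* was -0.36 and passed neither rule (limma adjusted p = 0.115), beside the rise of *Cpt1a*.

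Among the 4 acyl-CoA dehydrogenases of straight-chain fatty acids, *Acadm*, the medium-chain enzyme, was the only member called in any comparison. Its coverage was 69.2 and 40.2 ppm in E cells, 34.8 and 29.4 ppm in M cells and 106.5 and 95.8 ppm in RE cells. The states did not overlap, but the E libraries differed from each other by more than for any other member, with a log2 difference of 0.78. *Acadm* rose by 1.66 on the log2 scale in RE relative to M cells (SE 0.25, limma adjusted p = 0.00219). Its fall of 0.72 in M relative to E cells (limma adjusted p = 0.0496) and its rise of 0.94 in RE relative to E cells (limma adjusted p = 0.0265) passed the second rule alone, and the former ranged from -0.33 without E1 to -1.13 without E2. The latter was 0.55 without E2. *Acadvl*, *Acadl* and *Acads*, for very long, long and short chains, passed neither rule in any comparison. In M relative to E cells their log2 fold changes were -0.02 (95% interval -0.45 to 0.41), -0.03 (-0.44 to 0.38) and 0.06 (-0.35 to 0.46).

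The later steps of the mitochondrial spiral are carried out by the trifunctional protein (*Hadha* and *Hadhb*), the short-chain hydroxyacyl-CoA dehydrogenase (*Hadh*) and the thiolase *Acaa2*. *Acaa2* had 75.4 and 53.4 ppm in E cells, 33.9 and 30.6 ppm in M cells and 62.5 and 54.7 ppm in RE cells. E and RE cells overlapped and both M libraries were below them. *Acaa2* fell by 0.98 on the log2 scale in M relative to E cells (SE 0.19, limma adjusted p = 0.00535), just short of the fold threshold, and rose by 0.86 in RE relative to M cells (SE 0.19, limma adjusted p = 0.0119). *Hadh* had 87.8 and 75.8 ppm, 84.1 and 73.2 ppm, and 111.5 and 106.1 ppm, so that only the RE libraries stood apart, and it rose by 0.47 in RE relative to M cells (SE 0.14, limma adjusted p = 0.039). *Hadha* and *Hadhb* passed neither rule. *Hadhb* was recorded at 4.09 and 3.99 ppm in E cells, 5.71 and 5.91 ppm in M cells and 5.13 and 5.41 ppm in RE cells, while its partner *Hadha* had 313 to 413 ppm. Per kb of transcript the mean over the 6 libraries was 2.46 ppm for *Hadhb* and 92.3 ppm for *Hadha*. The *Hadhb* transcript has a processed pseudogene, *Gm13910*, that is 99.8% identical over 69.7% of its length. The study states that it mapped unique reads and says no more on reads that match both. The values of *Hadhb* are therefore uncertain, and the part of this copy in them was not tested.

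Unsaturated and peroxisomal fatty acids use additional enzymes. *Ech1*, an isomerase for double bonds, had 46.5 and 36.5 ppm in E cells, 34.9 and 34.5 ppm in M cells and 53.6 and 50.1 ppm in RE cells, and the 3 states did not overlap. It rose by 0.58 on the log2 scale in RE relative to M cells (SE 0.15, limma adjusted p = 0.026), and *Decr1*, the 2,4-dienoyl-CoA reductase, passed neither rule. In the peroxisome, *Acaa1a*, the thiolase, had 39.6 and 30.9 ppm in E cells, 18.5 and 19.6 ppm in M cells and 32.5 and 27.3 ppm in RE cells, with M cells lowest and E and RE cells overlapping. *Acaa1a* fell by 0.87 (SE 0.17, limma adjusted p = 0.00625) and then rose by 0.64 (SE 0.17, limma adjusted p = 0.0272), but its transcript shares 80.4% of its length at 96.8% identity with *Acaa1b*, so reads of the pair are hard to assign. *Ehhadh*, a bifunctional enzyme, had 9.39 and 7.87 ppm, 9.82 and 11.4 ppm, and 15.5 and 11.7 ppm. The states were in rising order without overlap, and the rise of 0.64 in RE relative to E cells passed the second rule (SE 0.20, limma adjusted p = 0.0476). *Hsd17b4*, the other bifunctional enzyme, had 123 to 154 ppm and passed neither rule.

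The electron transfer flavoprotein takes electrons from the acyl-CoA dehydrogenases of both pathways. *Etfa*, its alpha subunit, had 208 and 140 ppm in E cells, 104 and 93.9 ppm in M cells and 123 and 120 ppm in RE cells. M cells were lowest and E cells highest, without overlap. *Etfa* fell by 0.79 on the log2 scale in M relative to E cells (SE 0.19, limma adjusted p = 0.0143), a value that was -0.50 without E1 and -1.10 without E2, and its value in RE relative to E cells was -0.49 (limma adjusted p = 0.0931). *Etfb*, the beta subunit, which shares sequence with the gene model *Gm45233*, and *Etfdh*, the oxidoreductase that hands the electrons to ubiquinone, passed neither rule, with log2 fold changes of -0.33 and 0.17 in M relative to E cells.

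The branched-chain aminotransferases catalyse the first, reversible step. *Bcat1*, the cytosolic form, had 22.5 and 29.9 ppm in E cells, 46.9 and 40.1 ppm in M cells and 7.78 and 9.17 ppm in RE cells. It was the reverse of most members, highest in M cells and lowest in RE cells without overlap. *Bcat1* rose by 0.74 on the log2 scale in M relative to E cells (SE 0.19, limma adjusted p = 0.0179), a call that was lost with GC content and length removed (0.28, limma adjusted p = 0.172), under library totals (0.44, limma adjusted p = 0.0833) and without M1 or M2. It then fell by 2.34 in RE relative to M cells (SE 0.19, limma adjusted p = 0.000118), which is 5.08-fold, and by 1.61 relative to E cells (SE 0.19, limma adjusted p = 0.00137). *Bcat2*, the mitochondrial form, had 44.2 and 32.7 ppm in E cells, 25.2 and 24.1 ppm in M cells and 32.5 and 33.8 ppm in RE cells. Only M cells stood apart, lower than the rest, and *Bcat2* fell by 0.62 in M relative to E cells (SE 0.17, limma adjusted p = 0.0224), a value that was -0.41 without E1. Antisense genes overlap 250 bases of *Bcat1* exons and 247 bases of *Bcat2* exons. Genes on the opposite strand also overlap exons of *Oxct1* (467 bases), *Acadvl* (254), *Mccc1* (198), *Aldh6a1* (99), *Mut* (95) and *Hadha* (75). The sources used here do not state whether reads were counted by strand.

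The branched-chain ketoacid dehydrogenase complex commits the carbon skeletons to oxidation. *Bckdha*, the alpha chain of its decarboxylase, had 30.7 and 26.5 ppm in E cells, 18.2 and 20.9 ppm in M cells and 46.2 and 38.1 ppm in RE cells, and the 3 states did not overlap. *Bckdha* rose by 1.10 on the log2 scale in RE relative to M cells (SE 0.17, limma adjusted p = 0.00232), and by the second rule it fell by 0.54 in M relative to E cells (limma adjusted p = 0.0332) and was higher by 0.55 in RE relative to E cells (limma adjusted p = 0.0403). Its E vs. M value was -0.29 with GC content and length removed, which ended the call (limma adjusted p = 0.129), and -0.84 under library totals. *Dbt*, the acyltransferase core, had 4.22 and 5.51 ppm, 6.34 and 5.88 ppm, and 9.28 and 9.31 ppm, in rising order without overlap. It rose by 0.93 in RE relative to E cells (SE 0.19, limma adjusted p = 0.0114) and had the lowest coverage per kb of all members, a mean of 2.05 ppm per kb. *Bckdhb*, the beta chain, passed the second rule in E vs. M alone, with a level of 18.9 to 32.3 ppm over the 6 libraries, and lost it with GC content and length removed (-0.26, limma adjusted p = 0.132) or without E1 (-0.30, limma adjusted p = 0.0741). *Dld*, the dehydrogenase shared with other ketoacid complexes, and *Bckdk*, the kinase that switches the complex off, passed neither rule.

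In the leucine route, the steps after *Ivd* are the biotin-dependent methylcrotonyl-CoA carboxylase and the hydratase *Auh*. *Mccc2*, the beta subunit of the carboxylase, had 53.4 and 45.7 ppm in E cells, 28.04 and 23.4 ppm in M cells and 53.3 and 52.7 ppm in RE cells. Both M libraries lay below the other 4, and E and RE cells overlapped. *Mccc2* fell by 0.94 on the log2 scale in M relative to E cells (SE 0.15, limma adjusted p = 0.00248), short of the fold threshold, and rose by 1.05 in RE relative to M cells (SE 0.15, limma adjusted p = 0.00199). *Mccc1*, the biotin-carrying alpha subunit, had 32.6 to 44.5 ppm over the 6 libraries and passed neither rule. *Auh* had 33.2 and 21.2 ppm, 17.7 and 15.5 ppm, and 25.4 and 26.1 ppm. Its M libraries were the lowest, and it fell by 0.68 in M relative to E cells (SE 0.22, limma adjusted p = 0.0417), a value that ranged from -0.35 without E1 to -1.02 without E2.

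In the valine route, *Aldh6a1*, the methylmalonate semialdehyde dehydrogenase that forms propionyl-CoA, was the member that moved. Its coverage was 11.2 and 12.01 ppm in E cells, 8.78 and 9.62 ppm in M cells and 23.9 and 20.5 ppm in RE cells, in 3 separate ranges. *Aldh6a1* rose by 1.26 on the log2 scale in RE relative to M cells (SE 0.16, limma adjusted p = 0.00111) and by 0.92 relative to E cells (SE 0.16, limma adjusted p = 0.00597). The enzymes before it were DEGs in no comparison. *Acad8*, the isobutyryl-CoA dehydrogenase, kept to 22.1 to 25.9 ppm over all 6 libraries, and *Hibch*, the hydrolase, passed neither rule. *Hibadh*, the hydroxyisobutyrate dehydrogenase, passed the second rule in E vs. M alone, at 41.4 to 66.6 ppm over the 6 libraries, and not with GC content and length removed (-0.29, limma adjusted p = 0.0557).

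In the isoleucine route and in ketone body use, *Acat1*, the mitochondrial acetoacetyl-CoA thiolase that serves both, had 237 and 210 ppm in E cells, 103.3 and 98.1 ppm in M cells and 158 and 165 ppm in RE cells. The 3 states did not overlap, with E cells highest. *Acat1* fell by 1.15 on the log2 scale in M relative to E cells (SE 0.13, limma adjusted p = 0.000474), and rose by 0.68 in RE relative to M cells (SE 0.13, limma adjusted p = 0.00634). It was lower by a log2 fold change of -0.47 in RE relative to E cells (SE 0.13, limma adjusted p = 0.0308). *Oxct1*, the transferase that activates acetoacetate for use as fuel, had 362 and 316 ppm, 218 and 203 ppm, and 409.9 and 382.5 ppm. M cells were lowest and RE cells highest without overlap, with a fall of 0.69 (SE 0.14, limma adjusted p = 0.00614) and then a rise of 0.91 (SE 0.14, limma adjusted p = 0.0022). *Acadsb*, the dehydrogenase of the isoleucine skeleton, had 35.0 and 30.1 ppm in E cells, 36.4 and 34.7 ppm in M cells and 71.4 and 60.0 ppm in RE cells. E and M cells overlapped and RE cells stood apart. *Acadsb* rose by 1.01 in RE relative to E cells (SE 0.15, limma adjusted p = 0.00335) and by 0.88 relative to M cells (SE 0.15, limma adjusted p = 0.00418). The call in E vs. RE lay at the fold threshold and was kept in 6 of 16 alternative settings, with log2 fold changes from 0.64 to 1.14 over all of them. It was lost without E2 and without any 1 of the M or RE libraries, over which the value ranged from 0.88 to 1.14 with the setting without E1 included.

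Propionyl-CoA from valine and isoleucine is carboxylated by *Pcca* and *Pccb*, epimerized by *Mcee* and rearranged to succinyl-CoA by the cobalamin-dependent mutase *Mut*. *Pccb* had 36.3 and 31.9 ppm in E cells, 22.7 and 22.0 ppm in M cells and 55.4 and 45.8 ppm in RE cells. Its 3 states did not overlap. *Pccb* rose by 1.17 on the log2 scale in RE relative to M cells (SE 0.15, limma adjusted p = 0.0012), after a fall of 0.61 in M relative to E cells (SE 0.15, limma adjusted p = 0.0163), and was higher by 0.56 in RE than in E cells (limma adjusted p = 0.0291). *Pcca* had 56.98 and 51.0 ppm, 35.2 and 32.7 ppm, and 53.4 and 48.2 ppm. Only its M libraries stood apart, with a fall of 0.67 (SE 0.14, limma adjusted p = 0.00721) and a rise of 0.58 (SE 0.14, limma adjusted p = 0.0166). *Mcee* had 6.33 and 4.35 ppm, 2.24 and 2.82 ppm, and 4.42 and 4.47 ppm, also lowest in M cells. It fell by 1.03 in M relative to E cells (SE 0.24), past the fold threshold but not the adjusted p of the DEG rule (limma adjusted p = 0.0126), and rose by 0.80 (SE 0.24, limma adjusted p = 0.0419). *Mut* had 90.3 and 77.9 ppm, 75.7 and 68.2 ppm, and 102.7 and 96.1 ppm, in 3 ranges that did not overlap, and it rose by 0.47 in RE relative to M cells (SE 0.14, limma adjusted p = 0.0374). All 4 members of this group passed the second rule as higher in RE relative to M cells, which 17.0% of all genes did. So did all 3 members of the isoleucine and ketone body group. No other role group did so in full, with 2 of 3 members of the carnitine shuttle and 0 of 3 of electron transfer. Over single-library omissions the M vs. RE values were 0.51 to 0.65 for *Pcca*, 0.64 to 0.96 for *Mcee* and 0.39 to 0.54 for *Mut*. The second-rule calls of these genes and of *Acat1* were lost without M1, M2, RE1 or RE2, and that of *Acadsb* without M2 or RE1. The call of *Mcee* was lost without the coverage filter and with the replicate block (limma adjusted p = 0.0702 and 0.0531). With GC content and length removed, the E vs. M value of *Mcee* was -0.63 (limma adjusted p = 0.0354).

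**Figure D3:**
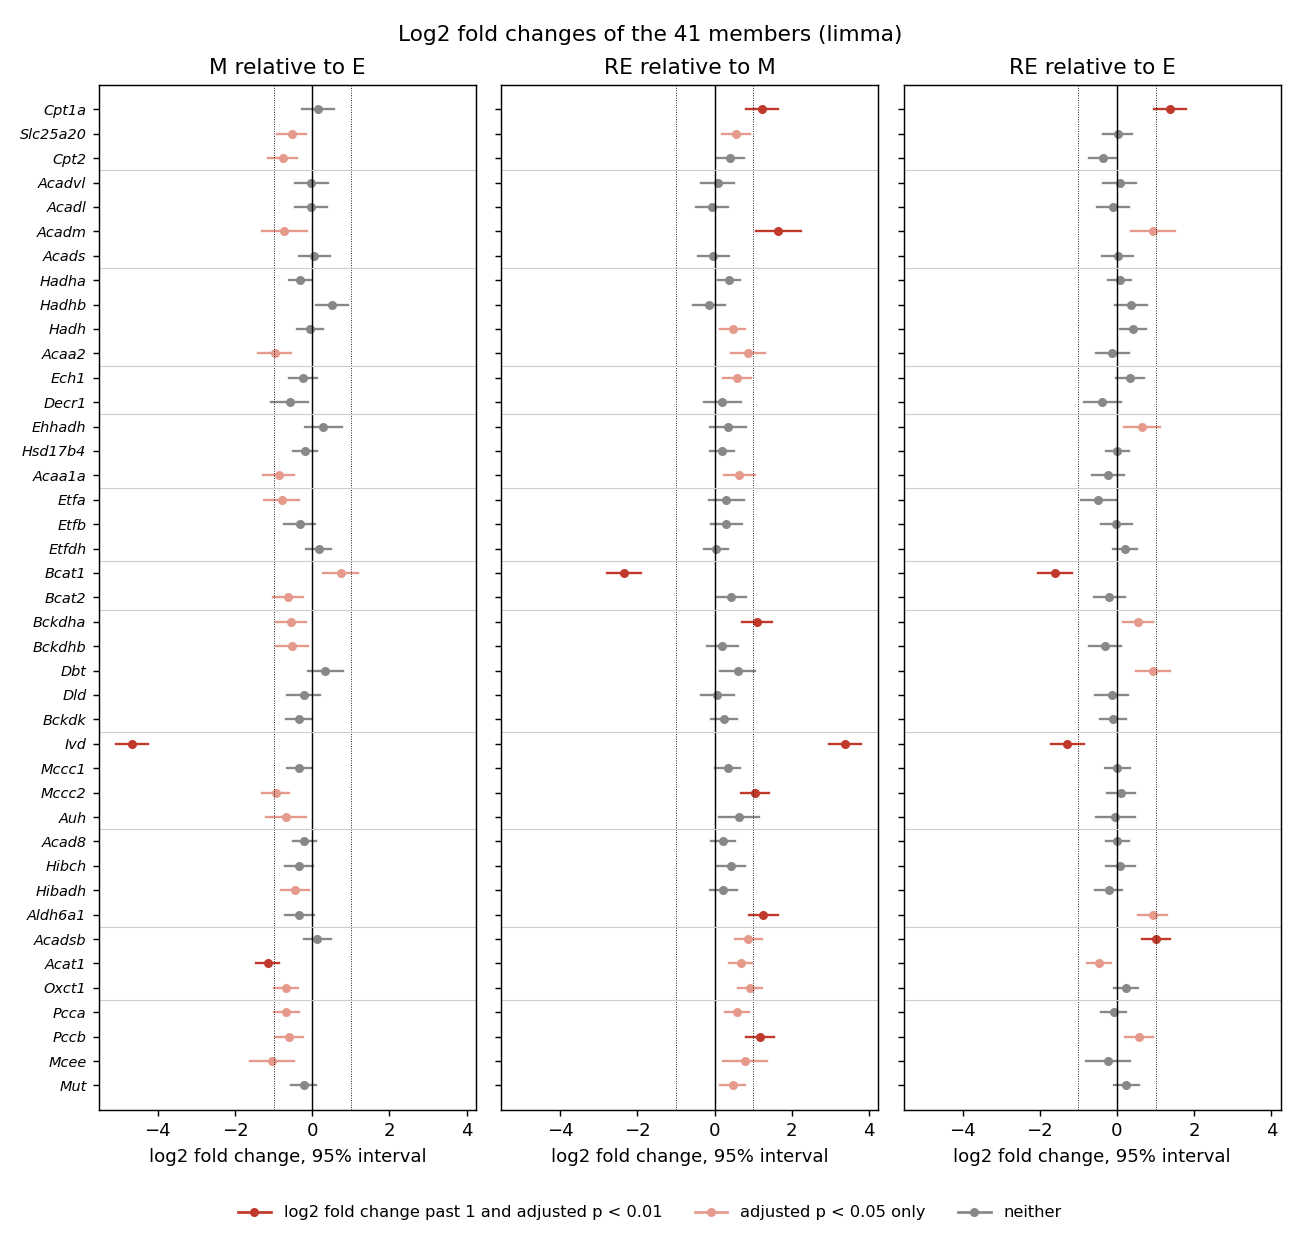
Log2 fold changes of the 41 members with 95% intervals (limma, log2(ppm + 0.1) scale) for M relative to E, RE relative to M and RE relative to E cells, in the same order and groups as in the heat map. Dark red marks DEGs, pale red an adjusted p below 0.05 only and grey neither; dotted lines are at -1 and 1. Points lean left in the first panel and right in the second, with *Bcat1* opposite in both.

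Taken by pathway, the 19 fatty acid members had a median log2 fold change of -0.25 in M relative to E cells and 0.35 in RE relative to M cells. The 22 members for branched-chain amino acids and ketone bodies had medians of -0.48 and 0.59. In sum, the fatty acid members had 1920 and 1569 ppm in E cells, 1496 and 1416 ppm in M cells and 1944 and 1894 ppm in RE cells. The sums of the branched-chain and ketone body members were 1659 and 1403 ppm, 1066 and 981.8 ppm, and 1542 and 1483 ppm. M cells were below E and RE cells in both sums without overlap, and the difference between the pathways was not tested.

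Of the 41 members, 14 passed neither rule in any comparison. Their log2 fold changes lay between -0.58 (*Decr1*) and 0.51 (*Hadhb*) in M relative to E cells, between -0.14 and 0.43 in RE relative to M cells and between -0.38 and 0.37 in RE relative to E cells. The 95% intervals of these genes reached from -1.06 to 0.92 in the first of these comparisons, so these libraries leave room for changes of that size. Several of them were among the most covered members per kb of transcript, with *Acadl* at 95.9, *Hadha* at 92.3 and *Acadvl* at 74.7 ppm per kb as a mean over the 6 libraries. Members that changed were found at both ends of that scale, from *Bcat1* at 3.33 and *Aldh6a1* at 4.22 to *Oxct1* at 89.4 and *Etfa* at 94.5 ppm per kb.

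Ratios of partner genes within a library do not depend on the scaling between libraries. The log2 ratio of *Bcat1* to *Bcat2* was -0.97 and -0.13 in E cells, 0.89 and 0.73 in M cells and -2.06 and -1.88 in RE cells. It was highest in M cells and lowest in RE cells. These ratios are not corrected for length, and per kb of transcript *Bcat1* stayed below *Bcat2* in M cells too, at a mean of 5.55 against 11.9 ppm per kb. Of the chains of the ketoacid decarboxylase, the ratio of *Bckdha* to *Bckdhb* was -0.07 and 0.15 in E cells, -0.11 and 0.15 in M cells and 1.11 and 0.72 in RE cells. E and M cells overlapped and RE cells were above both.

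The ratio of *Mccc1* to *Mccc2* was -0.26 and -0.21 in E cells, 0.28 and 0.48 in M cells and -0.28 and -0.39 in RE cells, so that it changed sign in M cells. For *Pcca* to *Pccb* it was 0.65 and 0.68, 0.64 and 0.57, and -0.05 and 0.07, with only RE cells apart. *Etfa* to *Etfb* stood at 2.31 and 2.21 in E cells against 1.70 to 1.89 in the other 4 libraries. *Hadha* to *Hadhb* was 6.57 to 6.61 in E cells, 5.73 to 5.79 in M cells and 6.26 to 6.30 in RE cells. These ratios are given as descriptions, since an exact permutation test of 2 against 2 libraries cannot pass the threshold, and those of *Hadhb* and *Etfb* include genes with near-identical copies.

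**Figure D4:**
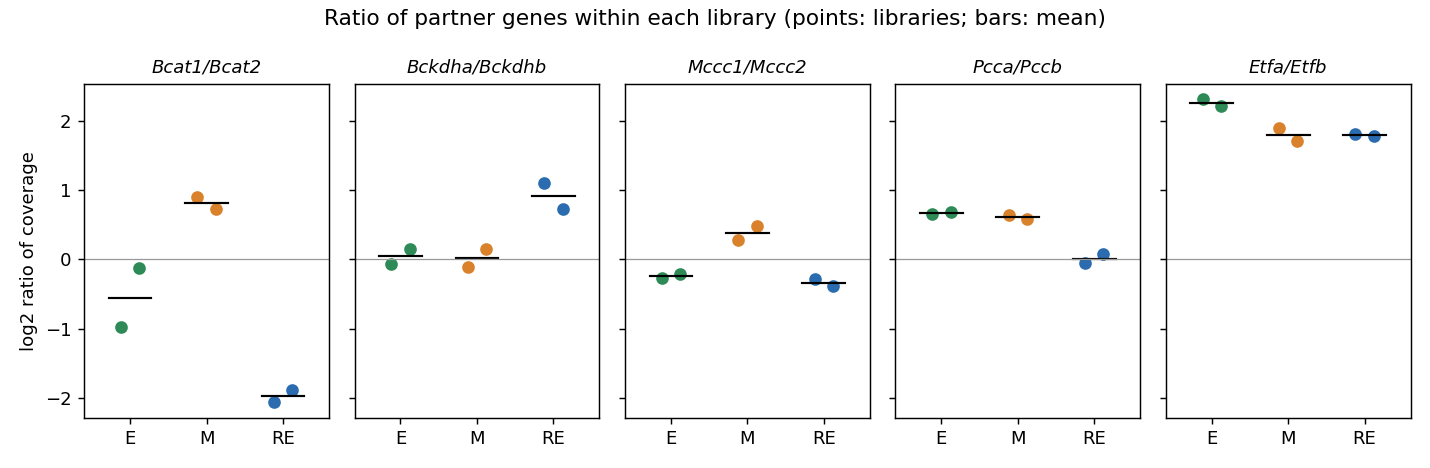
Log2 ratio of the coverage of partner genes within each library, for 5 pairs of subunits or isoenzymes (columns) in E, M and RE cells. Points are libraries and bars the mean of 2 libraries. *Bcat1/Bcat2*, not corrected for transcript length, was highest in M cells and near -2 in RE cells, and *Bckdha/Bckdhb* and *Pcca/Pccb* differed in RE cells from both other states.

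Of 77 further genes of these pathways in 4 lists, 76 were in the table and 66 were tested. These lists too were chosen with earlier results of these data known. In M relative to E cells, 3 were higher (4.55%) and 13 lower DEGs (19.7%), against 8.58% and 8.39% of all genes. In RE relative to M cells, 13 were higher (19.7%) and 4 lower (6.06%), against 8.08% and 4.79%. In RE relative to E cells 7 were higher (10.6%) and 2 lower (3.03%), against 6.2% and 3.17%. Their median log2 fold changes were -0.17, 0.34 and 0.22 in the 3 comparisons, against 0.00, -0.02 and 0.01 over all genes tested.

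The first list, of fatty acid uptake, activation and carnitine handling, had 16 genes tested. In E vs. M, 1 was a higher (6.25%) and 2 were lower DEGs (12.5%), against 8.58% and 8.39% of all genes, with a list median of 0.15. In M vs. RE 4 were higher (25%) and 1 lower (6.25%), against 8.08% and 4.79%, with a median of 0.28. *Slc27a1*, a fatty acid transport protein, had 89.5 and 76.4 ppm in E cells, 24.6 and 25.6 ppm in M cells and 87.5 and 81.5 ppm in RE cells, a fall of 1.71 on the log2 scale and a rise of 1.74 (limma adjusted p = 0.000106 and 0.000104). *Acsl4*, an acyl-CoA synthetase that prefers polyunsaturated chains, went the other way, from 63.2 and 57.4 ppm to 216.6 and 204.1 ppm and then 147.5 and 127.1 ppm, with a rise of 1.80 in M relative to E cells (limma adjusted p = 7.93e-05). *Acacb*, whose product malonyl-CoA inhibits the carnitine shuttle, and *Mlycd*, which degrades malonyl-CoA, both rose in RE relative to M cells, by 1.75 and 1.01 (limma adjusted p = 0.000295 and 0.00355). *Cpt1b*, the muscle form of the outer transferase, fell by 1.10 in the same comparison (limma adjusted p = 0.00243), from 30.7 and 33.3 ppm to 15.2 and 14.6 ppm. *Fabp4*, a fatty acid carrier known from adipocytes, had 8.98 and 3.10 ppm in E cells, at most 3 reads' worth in M cells and 2.22 and 1.87 ppm in RE cells, at least 28.1-fold higher in RE cells than the level that 3 reads per library would give in M cells.

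The second list held other enzymes of beta-oxidation, with 18 genes tested. In E vs. M 5 were lower DEGs (27.8%, against 8.39% of all genes) and 0 higher (against 8.58%) by limma, with 8 lower and 1 higher at an unadjusted p below 0.05, and the list median was -0.37. In M vs. RE 5 were higher (27.8%, against 8.08%) and 0 lower (against 4.79%) by limma, with 12 and 0 at an unadjusted p below 0.05, and the median was 0.75 with all 18 values positive. *Acox2*, the peroxisomal oxidase of branched-chain substrates, had 164.1 and 140.2 ppm in E cells, 41.7 and 46.0 ppm in M cells and 172.3 ppm in both RE libraries, with a fall of 1.79 and a rise of 1.97 on the log2 scale (limma adjusted p = 7.96e-05 and 5.91e-05). *Dci* (*Eci1*), a double-bond isomerase of the mitochondrion, *Acad10*, a member of the acyl-CoA dehydrogenase family, and *Hacl1*, the lyase of alpha-oxidation, also fell by 1.02, 1.32 and 1.05 and rose by 1.23, 1.13 and 1.24.

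In the third list, of other branched-chain, propionate and ketone body genes, 16 were tested. There were 1 higher (6.25%) and 2 lower DEGs (12.5%) in E vs. M, against 8.58% and 8.39% of all genes, and 2 higher (12.5%) and 1 lower (6.25%) in M vs. RE, against 8.08% and 4.79%. The list medians were 0.12 and 0.06. *Mmaa*, which prepares the cobalamin cofactor of *Mut*, fell by 1.23 in M relative to E cells (limma adjusted p = 0.00162). *Mmab*, of the same cofactor route, rose by 1.10 in RE relative to M cells (limma adjusted p = 0.00134). *Ppm1k*, the phosphatase that switches the ketoacid dehydrogenase on, had 1.76 and 1.99 ppm in E cells, 2.55 and 2.77 ppm in M cells and 5.02 and 4.74 ppm in RE cells, and rose by 1.33 in RE relative to E cells (limma adjusted p = 0.0036). *Bdh1*, of ketone body metabolism, was at or below 3 reads' worth in M cells and at 0.94 and 0.97 ppm in RE cells, at least 13.1-fold above the level of 3 reads. *Bdh2* was called in all 3 comparisons and stood at 0.09 and 0.04 ppm in E cells, near 3 reads' worth, at 1.86 and 2.05 ppm in M cells and at 0.60 and 0.34 ppm in RE cells.

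The fourth list held PPAR family members, coactivators and textbook targets, with 16 tested. DEGs in E vs. M were 1 higher (6.25%) and 4 lower (25%), against 8.58% and 8.39% of all genes. In M vs. RE they were 2 higher and 2 lower (12.5% each), against 8.08% and 4.79%, and the list medians were -0.19 and 0.27. *Ppargc1a*, the coactivator PGC-1alpha of mitochondrial gene expression, had 0.99 and 1.66 ppm in E cells, 0.13 and 0.27 ppm in M cells and 8.64 and 5.25 ppm in RE cells, in 3 separate ranges. It fell by 2.26 on the log2 scale in M relative to E cells (SE 0.39, limma adjusted p = 0.00324). In RE cells it then rose by 4.56 (SE 0.39, limma adjusted p = 0.000146), and exceeded E cells by 2.30 (limma adjusted p = 0.00517). Its M values were close to the 0.1 ppm added before taking logs, so the sizes of the fall and the rise depend on that addition. In M1 and M2, 3 reads' worth was 0.0719 and 0.0728 ppm. *Klf15*, a factor known to act on branched-chain amino acid breakdown, had 1.99 and 5.28 ppm in E cells, 0 in both M libraries and 0.75 and 1.06 ppm in RE cells, at least 12.4-fold above 3 reads' worth in M cells. *Ppard* rose in M relative to E cells by 1.22 (limma adjusted p = 0.00369), and *Adfp* (*Plin2*), the lipid droplet coat protein, fell by 1.47 in RE relative to M cells (limma adjusted p = 0.000212). *Fgf21* and *Acot2*, which are PPAR targets in liver, were lower in RE than in E cells by log2 fold changes of -3.46 and -2.15 (limma adjusted p = 0.000541 and 0.00661). *Ppara* did not pass the coverage filter.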

How the data were processed

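RNA of EpH4 cells in the E, M and RE states was sequenced on an Illumina Genome Analyzer, with 2 libraries per state. The authors mapped unique reads to the NCBI-m37 mouse genome with Bowtie and TopHat2 and named edgeR for their tests, with versions not given in the sources used here. The deposited values behave as coverage signal in bases per gene and not as counts: 44.8% to 48.4% of values up to 400 were whole multiples of 50 bases. A count test was therefore not used. Values were scaled with TMM factors (unweighted, trimming 30% of log ratios and 5% of levels) to ppm. The test kept genes with 500 or more bases in 2 or more libraries and used limma (3.58.1, R 4.3.3, trended empirical Bayes) on log2(ppm + 0.1), over all 6 libraries with state as the only term, and adjusted by Benjamini-Hochberg. DEGs followed the fold and p thresholds of the study's methods. Its results give a fold limit of 1.5 instead, which was tried as an alternative. The read length of 50 bases was read from the values, and a level of 3 reads' worth (150 bases) per library served as the floor. The study describes its libraries as biological replicates, but nothing ties them across states, and p-values measure only the spread between these samples. On coverage simulated for E vs. M, with 198 of 13628 genes changed by 2 on the log2 scale, the fit called 116 of them and no unchanged gene. The simulated noise was independent between genes and had 1 spread per gene in all 3 states. In the data, log2 differences between the 2 libraries of a state had an SD of 0.558 in E, 0.318 in M and 0.309 in RE cells. Calls of unchanged genes under such unequal spread were not tested.

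The 41 members and the other lists were chosen with earlier results of these data known. Full values were given for the 10 members called and for others past the second rule, up to 25 by smallest adjusted p (27 qualified), and up to 6 genes of each other list, of which some are not reported here. Transcript lengths, copies (minimap2 2.31-r1302) and exon overlaps came from a GENCODE annotation of GRCm38, with all 41 members matched by symbol. Lengths are those of the longest coding transcript. Alternatives were other scalings, filters, thresholds and pseudocounts, array weights, a fit of only the 2 states compared, GC content and length, the replicate block and each library left out.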

Additional observations from a re-analysis of the deposited data

How the results depend on the processing

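Leaving out each library in turn gave between 1 and 9 member DEGs for E vs. M, between 2 and 8 for M vs. RE, and between 0 and 5 for E vs. RE. By the second rule it gave 5 to 34, 9 to 32 and 3 to 23 members, and in the other pathway lists 7 to 24, 5 to 19 and 0 to 13 DEGs. An omission that leaves 1 library in a state assumes that it varies like the other states. Under library totals 8 members were DEGs in E vs. M and 29 passed the second rule there, against 2 and 19 with TMM. A fold threshold of 1.5, the limit in the study's results, or none, gave 8 DEGs in E vs. M. Fitting only the 2 states compared gave 12, 32 and 6 members by the second rule for the comparisons in that order, against 19, 19 and 11, and 5 DEGs of the other lists in E vs. RE, against 9. Array weights gave 29 by that rule for M vs. RE, and 7 for E vs. RE. The cause of these shifts was not tested. The counts of member DEGs without *Hadhb*, *Acaa1a* and *Etfb*, an alternative added after seeing the data, were 2, 8 and 4, as with them.

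Single-gene directions that reversed were those of *Cpt1a* in E vs. M (-0.15 under library totals and -0.10 without E1, against 0.38 without E2), *Acadsb* in E vs. M (-0.17 under library totals, -0.26 with GC content and length removed, also with the replicate block, -0.000 without E2 and 0.24 without E1) and *Mccc2* in E vs. RE (-0.007 without E2 and 0.21 without E1). None of the reversed values passed either rule, while the 0.38 of *Cpt1a* without E2 passed the second rule. Of the remaining gene values, 781 kept their direction and their side of the DEG threshold, 20 gained a call and 40 lost one.

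Same-numbered libraries deviated together with correlations of 0.27 (E and M), 0.06 (E and RE) and 0.12 (M and RE), so the numbers were not taken to pair the libraries. With the replicate block, member DEGs numbered 2, 8 and 4 for E vs. M, M vs. RE and E vs. RE respectively, as without it. Within-library ratios of partner genes under single omissions were those of the remaining library, such as -0.97 and -0.13 for *Bcat1* to *Bcat2* in E cells.

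E1 and E2 differed from each other more than the other pairs, with a median absolute log2 difference of 0.28 over the members, against 0.11 in M and 0.09 in RE cells. Coverage in bases gives no counting interval, and the strand of counting was not given in the sources used here.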
